A study of Mus musculus with 20 samples.

Results

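The Ly6 family genes examined here are Ly6a, Ly6c1, Ly6c2, Ly6d, Ly6e and Ly6k, which lie together on mouse chromosome 15. Accessible regions were taken as theirs by position alone: a peak belonged to a gene when its summit lay inside the gene span or within 20 kb of an end of it (mm10). Peaks that overlapped were merged into regions, first within a list and then over all lists. This gave 33 merged regions for the 6 genes, of 101406 merged regions and 21887 protein-coding genes in all.

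The lists come from ATAC-seq, in which the transposase Tn5 inserts sequencing adapters into open DNA, of cells sorted from the tail epidermis of mice with the genotype Lrig1CreER/Rosa-TdTomato. In such mice an inducible Cre expressed from the gene Lrig1, active in the upper hair follicle, can switch on a red fluorescent protein in Lrig1-expressing cells and their descendants. The cells were also sorted for Sca1, the protein that Ly6a encodes, so all groups were selected for the protein of 1 member. All 10 groups share the genotype and the sort, and each has 2 libraries pooled by the authors into 1 peak list. Skin with no wound in its label (unwounded skin below) gave 4 lists: homeostasis, UVB, the drug PRT4165 and its vehicle. Skin with a wound in its label gave another 4: 1 week after a first wound, 8 weeks after it, 1 week after a second wound (the second-wound list), and a wound combined with UVB. The last 2 lists are of cultured cells with 8 weeks and a first wound in their titles, 1 from a control, non-memory region and 1 from the distal memory region. PRT4165 blocks the ubiquitination of histone H2A by Polycomb repressive complex 1. With 1 list per group there is no spread between replicates, and no difference below was tested for significance. A region in a list can be open in all cells or in a part of them, and a list does not tell these apart.

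Ly6 proteins are small and are mostly held on the outer cell surface by a lipid anchor, with a folded domain of loops held by disulphide bonds. Sca1 marks blood stem cells and also cells of the upper hair follicle, Ly6C is used to sort monocytes, and Ly6d is a surface protein of keratinocytes and of early B cells. Ly6e is induced by interferon and affects the entry of several viruses, and Ly6k is known from the testis, where it is needed for sperm function. Several of the genes are recent duplicates of each other, and the promoters of Ly6c1 and Ly6c2 show how far such copies differ in sequence.

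These promoters are shown because regions lay over one and not over the other. The sequences are from RefSeq (GRCm38.p6, minus strand) and run from 250 bases before to 50 bases after an annotated start. Among the members, 2 had an entry in the table, and Ly6a, Ly6d, Ly6e and Ly6k had none. Capitals mark the motif matches found.
Ly6c1 (chr15:75048788-75049087): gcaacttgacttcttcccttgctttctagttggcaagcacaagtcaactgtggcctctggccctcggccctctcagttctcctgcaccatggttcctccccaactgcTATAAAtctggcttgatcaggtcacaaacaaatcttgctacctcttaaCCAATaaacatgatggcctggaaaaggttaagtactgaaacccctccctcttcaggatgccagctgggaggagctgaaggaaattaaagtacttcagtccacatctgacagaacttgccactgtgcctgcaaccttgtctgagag
Ly6c2 (chr15:75111922-75112221): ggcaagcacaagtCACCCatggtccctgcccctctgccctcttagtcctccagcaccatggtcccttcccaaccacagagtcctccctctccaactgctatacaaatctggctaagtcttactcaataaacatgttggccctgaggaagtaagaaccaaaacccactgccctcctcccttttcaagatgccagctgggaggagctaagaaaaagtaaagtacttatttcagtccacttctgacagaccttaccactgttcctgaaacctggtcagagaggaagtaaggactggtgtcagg

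The 2 promoters aligned over 288 columns with 74.3% identity, and their longest identical run was 20 bases. The Ly6c2 promoter was closer to that of Ly6a2, another copy on the same chromosome: they aligned over 300 columns with 97.0% identity and an identical run of 142 bases. Both strands were searched for 9 motifs: the TATA box as TATAAA, the CCAAT box as CCAAT, the GC box as GGGCGG, the AP-1 motif as TGANTCA, the STAT motif as TTCNNNGAA, the interferon response motif as 2 copies of GAAA with 2 bases of any kind between them, the CRE motif as TGACGTCA, the KLF motif as CACCC and the ETS motif as CCGGAA. None of the 9 overlaps another in the printed matches. In the printed Ly6c1 promoter TATAAA matched at bases 108 to 113 and CCAAT at bases 156 to 160, counted from the 5′ end. In the printed Ly6c2 promoter CACCC matched at bases 14 to 18. Of all 32851 promoters in the table, 13.6% hold TATAAA, 37.4% hold CCAAT and 57.5% hold CACCC. These are matches of letters, not sites shown to be bound. RefSeq gives Ly6c1 and Ly6c2 a further start each. The further Ly6c1 promoter (chr15:75048614-75048913) held 3 matches of CACCC on the other strand, and the further Ly6c2 promoter (chr15:75111888-75112187) held none of the 9.

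A region lay over both Ly6c1 promoters in 5 lists: homeostasis, vehicle, PRT4165, UVB and wound with UVB. No list had a region over a Ly6c2 promoter. For comparison, 33.4 to 43.1% of all promoters had a region in a list. Where reads map equally well to several copies, a list can lack a region for that reason. How such reads were treated by the authors is not stated in the sources used here, and the part of this in the difference was not tested.

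**Figure D1:**
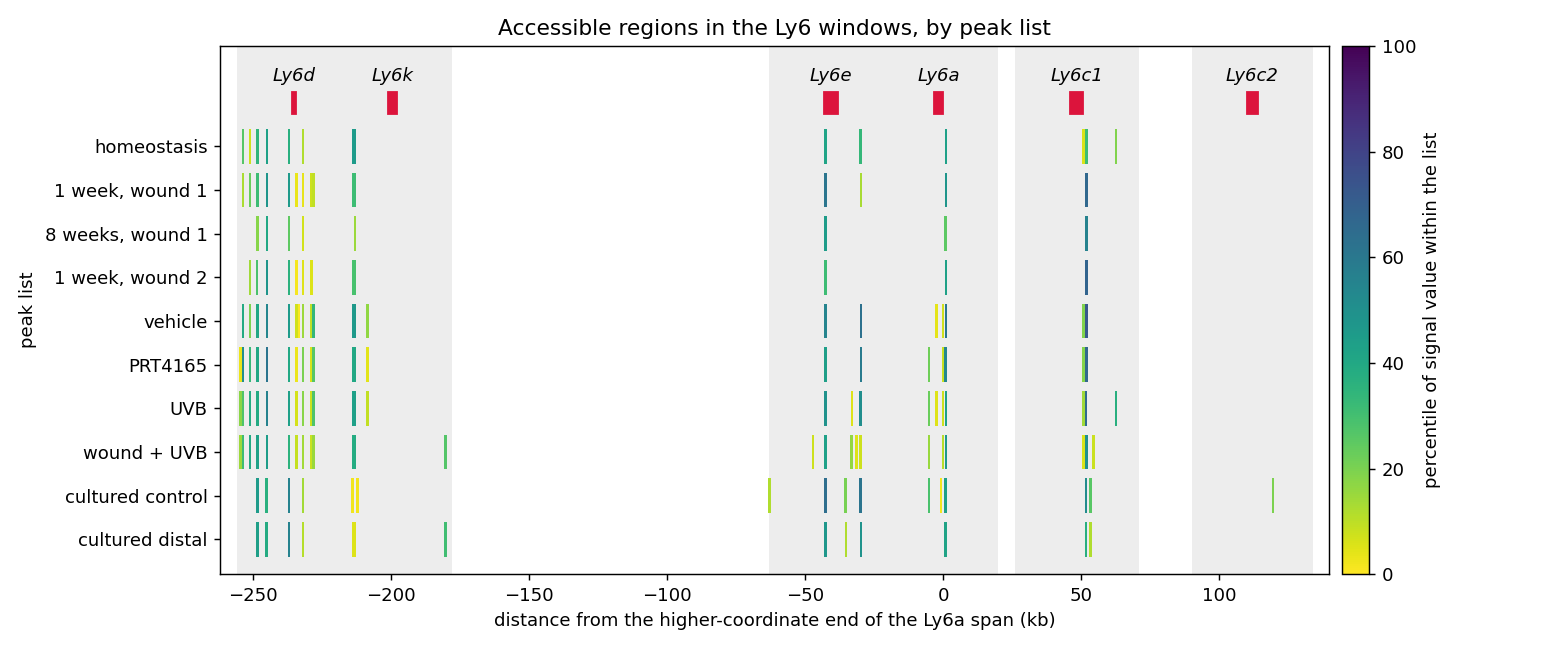
Position of every region in the Ly6 windows in the 10 peak lists, as distance in kb from the higher-coordinate end of the Ly6a span. Red boxes are the gene spans, grey shading the windows of 20 kb, and colour the percentile of the authors' signal value within the list; regions are drawn at least 0.9 kb wide. Regions recur at Ly6d, Ly6e, Ly6a and Ly6c1, and the Ly6c2 window holds 1 region in 1 list.

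The 6 genes differed in the number of regions around them. Ly6d (chr15:74762056-74763567) had 11 merged regions in its window, Ly6e (chr15:74955025-74959904) 7, Ly6a (chr15:74994877-74998031) 5, Ly6c1 (chr15:75044018-75048920) 5, Ly6k (chr15:74796874-74799968) 4 and Ly6c2 (chr15:75108161-75112066) 1. By list, Ly6d had 4 to 10 regions with a median of 8, while the medians of Ly6a, Ly6c1, Ly6e and Ly6k were 2 and that of Ly6c2 was 0. The median over all protein-coding genes was 2 or 3 regions, depending on the list. In each list 62.2 to 95.2% of the protein-coding genes had fewer regions than Ly6d. The windows of Ly6d and Ly6k overlap, as do those of Ly6e and Ly6a, but no merged region fell into 2 windows.

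Proximity did not always favour the Ly6 gene. For 23 of the 33 regions the nearest protein-coding gene was a member, and for 10 it was another gene. In the Ly6d window 3 regions were nearest to Slurp2 and 2 to Lynx1, members of the wider family that encode a secreted epidermal protein and a modulator of acetylcholine receptors. Ly6g6g was nearest to 4 regions of the Ly6d and Ly6k windows, and Gml to 1 region of the Ly6k window. Position does not show which gene a region acts on.

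The 33 regions were short, with a median merged width of 448 bp (177 to 1373 bp), against 608 bp for all merged regions. Of these 8 (24.2%, Wilson 95% interval 12.8 to 41.0%) were present in all 10 lists, against 18.8% of all merged regions. Presence means that a peak of the list is part of the merged region, and such peaks need not all overlap each other. Another 8 (24.2%) were present in 1 list only, against 17.1%. Both backgrounds lay inside the interval of the Ly6 regions. With every list limited to its strongest 34644 regions, the number in the shortest list, 1 of 14 Ly6 regions (7.14%) was in all 10 lists, against 19.8% of all regions. The regions present in all 10 lists were wider, with a median of 941.5 bp, than the other 25, with a median of 400 bp.

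By signal value, regions in the Ly6 windows ranked in the lower and middle part of every list. The signal value, the authors' measure of enrichment in a peak, had a median of 6.46 to 8.27 over the Ly6 regions of a list and of 8.96 to 11.0 over all its regions. The median percentile of the Ly6 regions within their list was lowest with wound and UVB, at 15.4, and highest in the cultured distal list, at 37.9. Ranked by the authors' −log10 p, the medians were higher, from 38.3 in cultured control cells to 56.2 with PRT4165. Wound with UVB then had 54.0 and was no longer lowest. No Ly6 region reached the top 10% of any list, whether ranked by signal value or by the authors' −log10 p. The highest percentile by signal value was 72.7, next to Ly6c1 with vehicle, and by −log10 p it was 88.8, near Ly6d at 1 week.

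**Figure D2:**
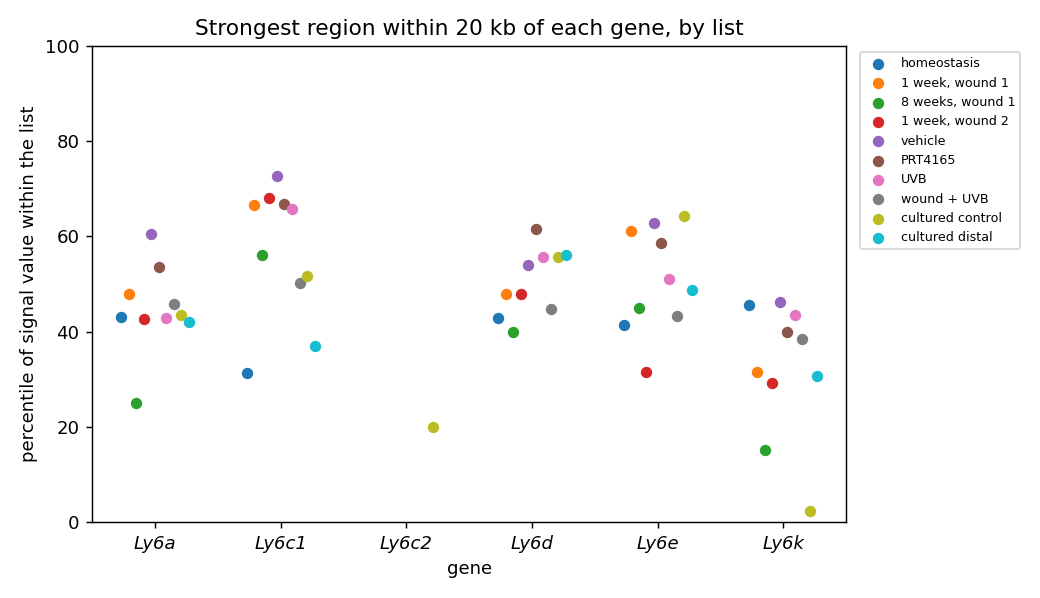
Percentile within its list of the strongest region in the window of each gene (vertical axis, by signal value), with 1 point per list and gene. Ly6c1 spans 31.3 to 72.7 over the lists and Ly6a 25.1 to 60.5; Ly6c2 has a point in the cultured control list only, at 19.9.

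Ordered by the median percentile of their strongest region over the lists that have one, the genes were Ly6c1 (61.0), Ly6d (51.0), Ly6e (49.9), Ly6a (43.3), Ly6k (35.0) and Ly6c2 (19.9, 1 list). The ranges of neighbours in this order overlapped, and the single value of Ly6c2 lay inside the range of Ly6k. They were 31.3 to 72.7 for Ly6c1, 39.9 to 61.6 for Ly6d, 31.5 to 64.3 for Ly6e, 25.1 to 60.5 for Ly6a and 2.33 to 46.3 for Ly6k. Over all protein-coding genes with a region in the window, the median percentile of the strongest region was 79.6 to 87.9 by list. The strongest region of Ly6a, Ly6c1, Ly6d, Ly6e and Ly6k thus stood below that of the median gene in every list, as did that of Ly6c2 in the 1 list that had one. Ranked by −log10 p the medians were higher, at 82.3 for Ly6d, 75.8 for Ly6c1, 68.2 for Ly6a, 64.4 for Ly6e, 54.2 for Ly6k and 6.98 for Ly6c2, and Ly6d came first. By that measure the median over all genes was 81.6 to 90, and Ly6d at 1 week was the only case of a member above it.

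At Ly6a, the gene of the sort marker, the region that recurred in all 10 lists lay beyond the higher-coordinate end of the gene (chr15:74998509-74999472, merged over the lists). Its strongest summit was 1083 to 1152 bp from that end, and the span of the long non-coding RNA gene Gm28068 also covers it. Its signal value was lowest in the 8-week list (7.34), followed by homeostasis (8.39), the second wound (8.73) and 1 week (8.79). The other fresh lists had 8.92 for UVB, 9.92 for PRT4165 and 10.4 for both vehicle and wound with UVB. Control cells in culture had 8.39 and distal cells 8.68. The highest value was therefore 10.4 and the lowest 7.34, with no separation of wounded from unwounded skin. Signal values were not rescaled between lists: 10.4 was percentile 60.5 with vehicle and 45.8 with wound and UVB. The lowest percentile was 25.1, at 8 weeks, and the highest 60.5, with vehicle. This order changed with lists limited to their strongest 34644 regions: homeostasis was then highest at 42.1, 8 weeks had 25.1, vehicle 20.2 and PRT4165 the lowest value, 8.37, and both UVB lists lost the region. The 8-week and homeostasis lists are of nearly equal length (34644 and 35195 regions), and the region ranked at percentile 43.0 in homeostasis.

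The other 4 regions at Ly6a were each in fewer lists. At the end of the gene itself (chr15:74997821-74998198) a weak region was present with vehicle, PRT4165, UVB and wound with UVB, at signal values of 4.56, 5.02, 4.67 and 5.67, and absent from homeostasis, the wound course and both cultured lists. The 4 lists that hold it are the longest, with 66541 to 73340 regions. A region 1.96 kb beyond the other end (chr15:74992784-74993047) was present with PRT4165, UVB, wound with UVB and in the cultured control, at 6.46 to 6.96. Inside the gene, a region at 3.97 with vehicle and 4.15 with UVB (chr15:74995429-74995828) and another at 3.78 in the cultured control (chr15:74997190-74997440) completed the set. Apart from the recurrent region, no peak of homeostasis, 1 week, 8 weeks or the second wound fell into the Ly6a window.

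Ly6c1 resembled Ly6a in its recurrent region and in its end region, while the other regions of their windows differed in position. Homeostasis held the end region of Ly6c1 but not that of Ly6a. Whether reads that map equally well to several copies have a part in the likeness was not tested. A region present in all 10 lists (chr15:75049446-75050391) had its strongest summit 1110 to 1165 bp beyond the higher-coordinate end, close to the 1083 to 1152 bp at Ly6a, and a weaker region lay at the end itself. The recurrent region was the strongest Ly6 region in 7 of the lists. In these its signal value was 9.94 at 8 weeks, 10.8 at 1 week, 11.0 for wound with UVB, 11.5 for the second wound, 11.9 for PRT4165, 12.2 for UVB and 12.5 for vehicle. The 3 lists in which another region was stronger had 7.48 (homeostasis), 8.17 (cultured distal) and 9.31 (cultured control). Homeostasis had the lowest percentile, 31.3, against 66.7 at 1 week, 56.2 at 8 weeks and 68.0 after the second wound. With each list limited to its strongest 34644 regions, homeostasis was no longer lowest. It then had 30.2, above wound with UVB (4.43), cultured distal cells (16.7), cultured control cells (24.5) and UVB (27.5). PRT4165 had 34.7, vehicle 44.8, 1 week 52.8, 8 weeks 56.2 and the second wound 61.1.

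The region at the end of Ly6c1 (chr15:75048728-75049087) covers the printed promoter. The signal value there was 4.72 for wound with UVB, 5.08 in homeostasis, 5.67 for UVB, 5.91 for vehicle and 6.23 for PRT4165, and the other 5 lists lacked the region. Beyond the recurrent region, both cultured lists had a region 2.38 kb from the gene (chr15:75051191-75051727) at 6.67 and 5.82, which none of the 8 fresh lists had. The wound-and-UVB list had one of its own 3.73 kb away at 5.14, and homeostasis and UVB shared one 11.8 kb away at 6.51 and 8.22.

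Ly6c2 was nearly bare. Its window held 1 region (chr15:75117326-75117805), 5.59 kb beyond the gene, in the cultured control list, with a signal value of 6.14.

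Ly6e had a broad region over its lower-coordinate end (chr15:74954783-74956002) in all 10 lists, 1031 to 1173 bp wide and with 2 to 4 summits. Over the wound course its signal value was 8.28 in homeostasis, 10.2 at 1 week, 8.92 at 8 weeks and 7.81 for the second wound. The remaining fresh lists had 8.79 (PRT4165), 9.67 (vehicle), 9.69 (UVB) and 10.1 (wound with UVB). Cultured control cells were highest, at 11.0 and percentile 64.3, and cultured distal cells had 9.21. Of the lists, the second wound had the lowest percentile, 31.5. This order changed with lists limited to their strongest 34644 regions. Then 1 week and 8 weeks were highest at 45.0 each, and cultured control cells had 44.2. The second wound had 16.6 and vehicle the lowest value, 8.92, and PRT4165 and both UVB lists lost the region. By −log10 p UVB was highest (180) and homeostasis lowest (52.9), with 167 in cultured control cells and 63.6 for the second wound.

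A region 8.47 kb beyond the other end of Ly6e (chr15:74967684-74968724, within the Gm28068 span) differed between fresh lists of wounded and unwounded skin, but not at every threshold. The 4 fresh lists whose labels name no wound had signal values of 7.63 (homeostasis), 9.91 (UVB), 10.6 (PRT4165) and 10.8 (vehicle). It was 5.67 at 1 week and 5.08 with wound and UVB, and the 8-week and second-wound lists had no peak there. The 2 sets of 4 lists did not overlap. In cultured cells it was 10.6 (control) and 9.41 (distal), within the 7.63 to 10.8 of unwounded skin. The titles of the cultured lists also name a first wound, but these lists are in neither set. With every list limited to its strongest 34644 regions, UVB lacked the region too. At the stricter score of 830 homeostasis lacked it, as the 4 lists of wounded skin did, and vehicle, PRT4165, UVB and both cultured lists held it. Under neither setting did the region separate the sets. At the end of Ly6c1 the highest of the wounded lists had 4.72 and the lowest of the unwounded lists 5.08, and the other 3 wounded lists had no value. There the equal length left homeostasis as the only list with the region, and at the stricter score wound with UVB held it and homeostasis did not. These 2 of the 27 Ly6 regions found in a fresh list had lower signal values in all 4 lists of wounded skin than in all 4 of unwounded skin, against 0.643% of all 87407 such regions, and none of the Ly6 regions was higher in all 4 (0.0904% of all). By percentile within the list 3 were lower, against 2.0%, with the region 12 kb from Ly6k added, and none was higher (0.0629% of all). By signal value that region was highest with wound and UVB, at 9.45. At equal length only homeostasis, 1 week, 8 weeks and the second wound held it, so it did not separate the sets. In all these counts a list with no peak was placed below any list with one, for the Ly6 regions and for all regions. This grouping of the lists was chosen after the values were seen, and the lists within a set differ in treatment and are not replicates of each other.

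The other regions of the Ly6e window were found in few lists. Both cultured lists had one 2.87 kb beyond the gene (chr15:74962599-74962941) at 6.19 and 5.80, and the cultured control had one 19.7 kb before it at 5.40. Both UVB lists had one 5.06 kb beyond the gene (chr15:74964719-74965166), at 4.24 with UVB alone and 6.62 with wound and UVB. The wound-and-UVB list alone had one 4.27 kb before the gene at 5.07 and one 6.72 kb beyond it at 4.63.

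**Figure D3:**
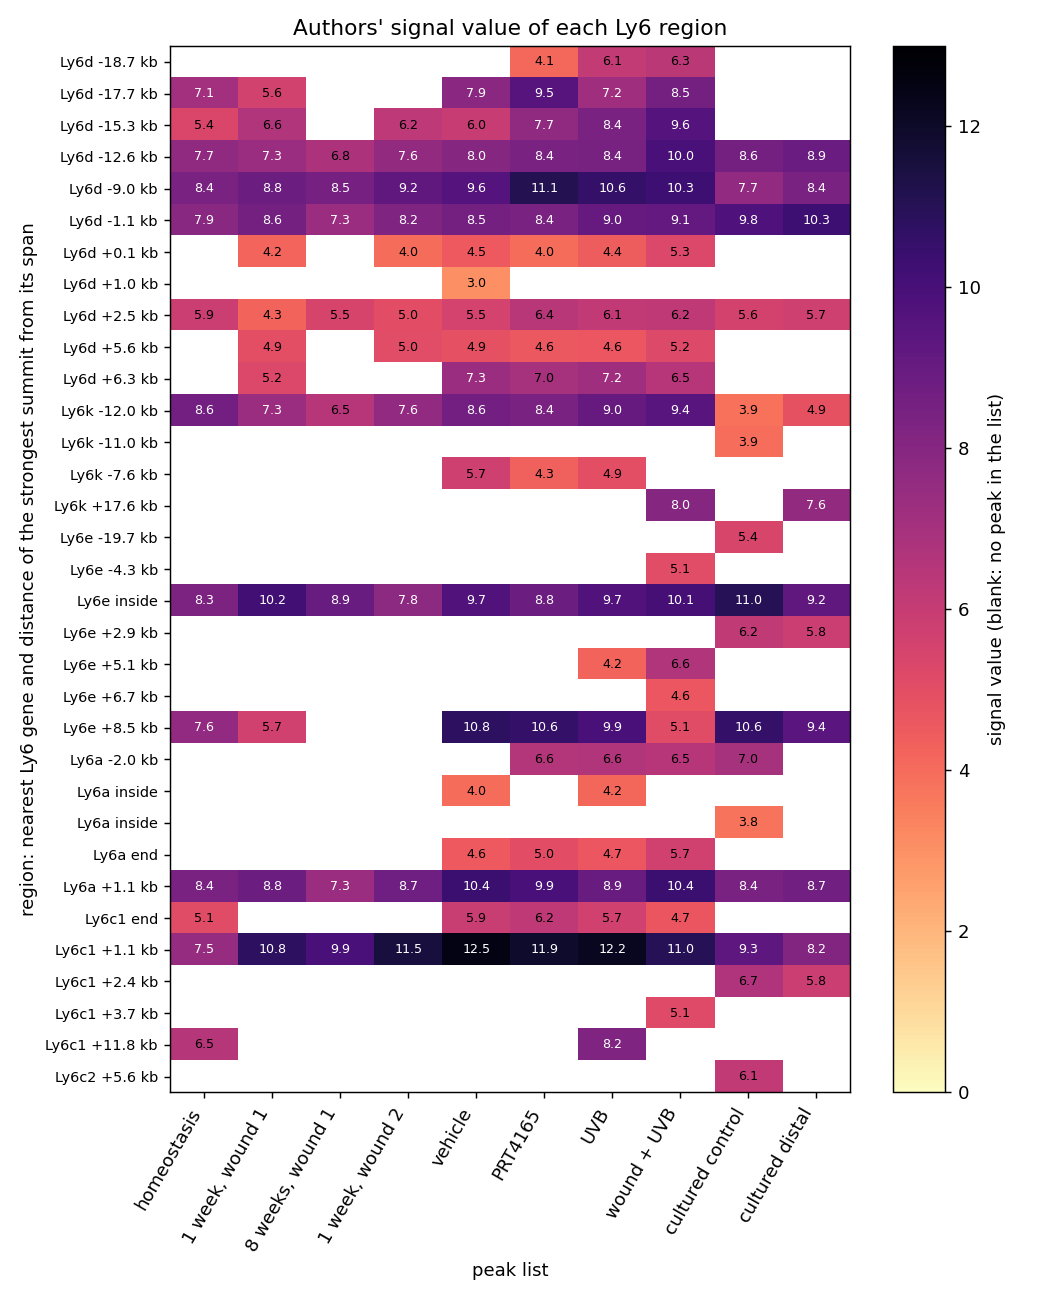
Signal value of each of the 33 Ly6 regions (rows, in genome order, named by the nearest gene and the distance of the strongest summit from its span) in the 10 peak lists (columns); blank cells have no peak. The 8 rows without a blank include the regions 1.1 kb from Ly6a and Ly6c1, and the row 8.5 kb from Ly6e is blank at 8 weeks and after the second wound.

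Around Ly6d, 4 regions recurred in all 10 lists, 2 of them nearest to Lynx1. The region 1.11 kb from the lower-coordinate end of Ly6d (chr15:74760715-74761321) had signal values from 7.32 at 8 weeks to 10.3 in cultured distal cells, with 9.78 in cultured control cells. Its percentiles in the cultured lists, 55.6 and 56.2, were above those of the 8 fresh lists, which ran from 24.9 to 45.8. At equal length cultured control cells had 30.5, below homeostasis at 36.1, and cultured distal cells 42.2. By −log10 p the cultured values of 150 and 127 lay within the 76.7 to 348 of the fresh lists. The region 2.53 kb beyond the other end (chr15:74765762-74766336) was weaker, at 4.26 to 6.43. The regions at Lynx1 (chr15:74749220-74749866 and chr15:74752475-74753411) had values of 6.77 to 9.97 and of 7.66 to 11.1.

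The remaining 7 regions nearest to Ly6d among the members were absent from both cultured lists. At the end of Ly6d (chr15:74763477-74763917) a region of 3.99 to 5.28 was present in 6 lists and missing in homeostasis, at 8 weeks and in culture. The same 6 lists held the region 5.60 kb away (chr15:74768902-74769319), at 4.58 to 5.20. The region 6.32 kb away was present in 5 of these lists and missing after the second wound. The regions 5.60 and 6.32 kb away lie nearer to Ly6g6g than to Ly6d. The region 1.02 kb away was in the vehicle list only, at 3.0. Inside and next to Slurp2, 3 regions were present in 3, 6 and 7 of the 8 fresh lists, with values of 4.08 to 9.59, and none of them was in the 8-week list.

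Ly6k had no peak inside its span or within 7 kb of it in any list. The recurrent region of its window (chr15:74783753-74785125) lay 12 kb away and nearer to Ly6g6g. Its signal values were 6.48 to 9.45 in the 8 fresh lists but 3.85 (control) and 4.86 (distal) in cultured cells, below all fresh lists. The cultured control list alone had a region 11.0 kb away at 3.93. A region 7.56 kb away was present with vehicle, PRT4165 and UVB at 4.32 to 5.69. One within Gml, 17.6 kb away, was present with wound and UVB at 8.00 and in the cultured distal list at 7.58.

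The number of Ly6 regions per list moved with the length of the list. There were 8 at 8 weeks, 11 for the second wound, 13 in homeostasis and 14 at 1 week. Vehicle and PRT4165 had 19 each, UVB 22 and wound with UVB 23. Cultured control cells had 16 and cultured distal cells 12. Per 10000 regions of the list, homeostasis had the most, at 3.69, and 8 weeks the fewest, at 2.31, although these lists are the 2 shortest. The wound-and-UVB list held more Ly6 regions than the UVB list with fewer regions in all (66541 against 73340).

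**Figure D4:**
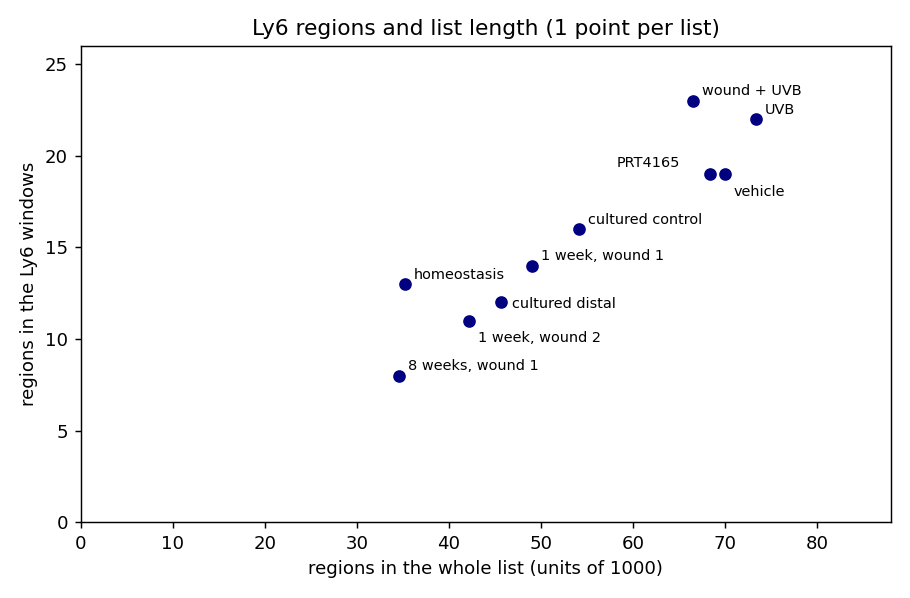
Number of regions in the Ly6 windows (vertical axis) against the number of regions in the whole list (horizontal axis, in units of 1000), with 1 point per list. The 8-week list has 8 Ly6 regions and homeostasis 13 at nearly the same length, and the 4 longest lists have 19 to 23.

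For the comparisons, a region was called gained when the first-named list held it with no overlap of at least 1 bp in the other list, and lost in the reverse case. One week after the first wound, 3 of 14 Ly6 regions (21.4%) were gained against homeostasis, where 33.1% of all regions of the list were, and 2 of 13 (15.4%) were lost, against 6.04%. All 3 gained regions lay in the Ly6d window, those 5.60 and 6.32 kb from Ly6d being nearer to Ly6g6g. Both lost ones lay at Ly6c1: the end region and the one 11.8 kb away. With the longer list limited to the length of the shorter, 0% were gained, against 23.9% of all regions, and 46.2% lost, against 22.8%. At 8 weeks no Ly6 region was gained against homeostasis (0 of 8, Wilson interval 0 to 32.4%; 17.9% of all) and 5 of 13 were lost (38.5%, 17.7 to 64.5%; 19.1% of all). Those lost were 2 regions at Slurp2 in the Ly6d window, the region 8.47 kb from Ly6e and the same 2 at Ly6c1. Both backgrounds lay inside these intervals.

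From 1 to 8 weeks after the first wound no Ly6 region was gained (0 of 8; 5.50% of all) and 6 of 14 were lost (42.9%; 33.7% of all), 5 in the Ly6d window and 1 at Ly6e. One week after the second wound against 1 week after the first, 0 of 11 were gained (9.85% of all) and 3 of 14 lost (21.4%; 23.1% of all). Against 8 weeks, the second-wound list gained 3 of 11 (27.3%; 27.1% of all), all in the Ly6d window, and lost 0 of 8 (11.3% of all). So the 8 Ly6 regions of the 8-week list were present in each of the 3 lists it was compared with. They were the same 8 merged regions that were present in all 10 lists. The counts of 0 for regions of the 8-week list are therefore not separate results. Against homeostasis the second-wound list gained 2 of 11 (18.2%, against 27.3% of all), both in the Ly6d window. It lost 4 of 13 (30.8%, against 12.9% of all), which included the region 8.47 kb from Ly6e and the one at the end of Ly6c1. These comparisons share lists with each other.

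With PRT4165, 2 of 19 Ly6 regions were gained against vehicle (10.5%; 11.4% of all) and 2 of 19 lost (10.5%; 13.9% of all). The gained ones lay 1.96 kb from Ly6a and 18.7 kb from Ly6d within Slurp2, and the lost ones inside Ly6a and 1.02 kb from Ly6d. UVB gained 4 of 22 against vehicle (18.2%; 16.2% of all) and lost 1 of 19 (5.26%; 11.6% of all). Among the 4 were the same 2 regions that PRT4165 gained, and both comparisons share the vehicle list. Wound with UVB against UVB gained 4 of 23 (17.4%; 10% of all), 2 at Ly6e, 1 at Ly6c1 and 1 within Gml, and lost 3 of 22 (13.6%; 19.3% of all).

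Cultured distal cells gained 1 of 12 Ly6 regions against cultured control cells (8.33%; 7.60% of all) and lost 5 of 16 (31.2%, 14.2 to 55.6%; 22.2% of all). The lost ones included the region inside Ly6a, the one 1.96 kb from it and the only region near Ly6c2. Cultured control cells against vehicle gained 7 of 16 (43.8%; 31.2% of all) and lost 10 of 19 (52.6%; 46.7% of all). Vehicle against homeostasis gained 7 of 19 (36.8%; 50.6% of all) and lost 1 of 13 (7.69%; 1.15% of all), the region 11.8 kb from Ly6c1. With vehicle limited to the length of the homeostasis list, 0% were gained, against 27.0% of all regions, and 61.5% lost, against 26%.

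Over the merged regions, 6 of the 33 (18.2%, 8.61 to 34.4%) were found in cultured cells only, against 13.8% of all merged regions; of these, 2 were in both cultured lists, against 7.75%. Fresh cells only held 16 (48.5%, 32.5 to 64.8%), against 44.5%. A further 4 (12.1%, 4.82 to 27.3%) were found in 1 or both UVB lists only, against 7.66%. All these backgrounds lay inside the intervals of the Ly6 regions, which cover counting error only and treat neighbouring regions as independent.

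**Figure D5:**
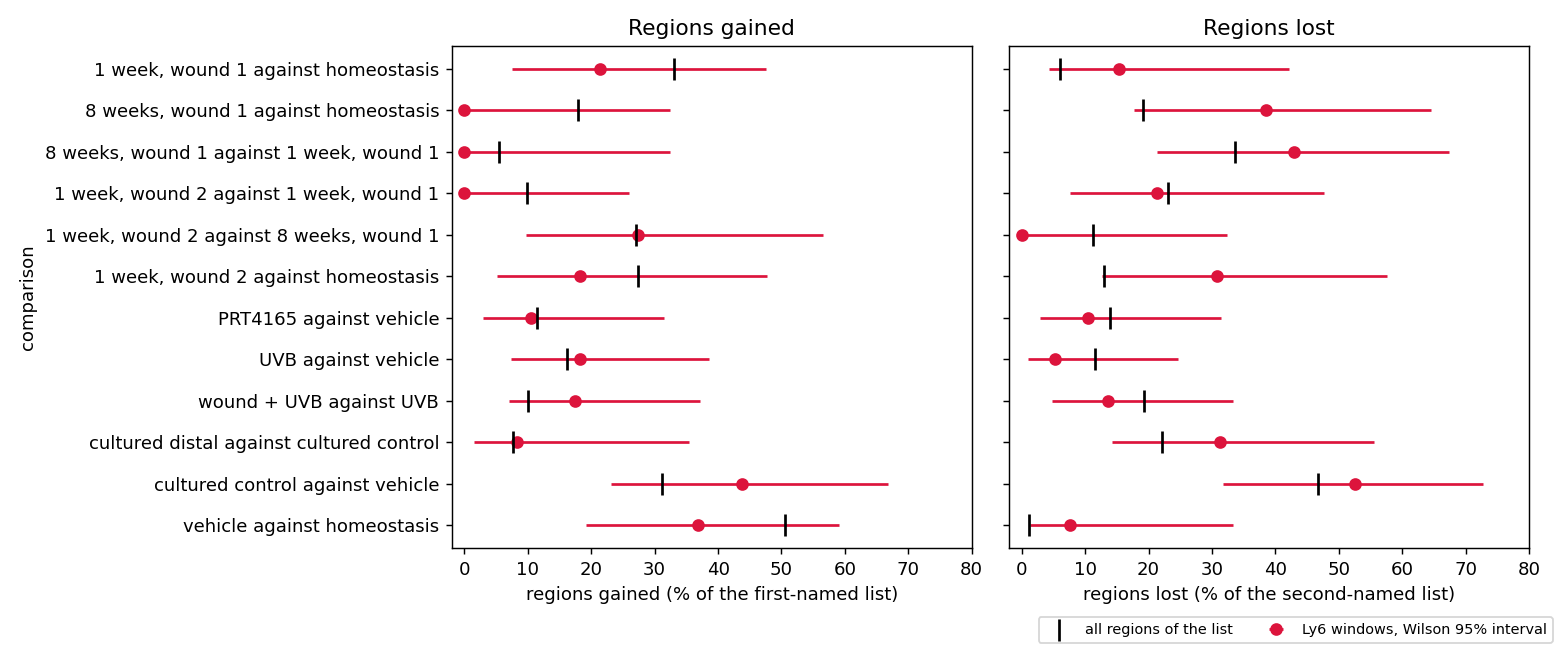
Share of Ly6 regions gained (left, % of the first-named list) and lost (right, % of the second-named list) in 12 comparisons, as points with Wilson 95% intervals, beside the share of all regions of the same list (black bars). The black bar falls within the interval in all rows but 1: for regions lost with vehicle against homeostasis the Ly6 share is 7.69% and that of all regions 1.15%.

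Other members of the Ly6, uPAR and related families were looked up by a summit within 1 kb of a gene end; 34 of 35 listed symbols were found. Between 8 (8 weeks and cultured control) and 18 (UVB) of the 34 had one, or 23.5 to 52.9%, against 46.9 to 58.8% of all protein-coding genes. Those with a region in all 10 lists included Lynx1, Lypd3, Lypd6b, Cd59a and Pinlyp. Cd59a encodes an inhibitor of complement. Plaur, the urokinase receptor, had one in 7 lists, among them 1 week after the first wound and both cultured lists but not 8 weeks or the second wound. Slurp1, a secreted epidermal protein, had one in the UVB lists only. The neighbours Ly6i, Ly6m, Ly6a2, Ly6g and Ly6f had none in any list. By the same measure Ly6e had a summit within 1 kb of an end in all 10 lists, Ly6a in 8, Ly6c1 and Ly6d in 7, and Ly6c2 and Ly6k in none. Regions present in all 10 lists lie close to this limit. Their strongest summits were 1083 to 1152 bp from Ly6a, 1110 to 1165 bp from Ly6c1 and 971 to 1117 bp from Ly6d. A list not counted for these genes therefore still had a region near the gene.

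Markers of the sorted and of other cells were checked in the same way. Of 7 keratinocyte markers, 6 had a region in every list, and Trp63 had none at its ends. Of 6 upper follicle markers, 5 or 6 had one in the fresh lists and 3 in both cultured lists. The T cell markers Cd3e and Ptprc, the myeloid markers Itgam and Lyz2, the neutrophil markers Mpo and Elane, and the endothelial markers Pecam1 and Cdh5 had none in any list. Others of the same lists had one: Spi1 and Cd14 (myeloid) in all 10 lists, Cd68 (myeloid) and S100a8 (neutrophil) in 9, Thy1 (T cell) and Tek (endothelial) in 7, and Csf1r (myeloid) and Kdr (endothelial) in both cultured lists and no other. Of 7 T cell markers 0 to 2 had a region, of 7 myeloid markers 2 to 4, of 5 neutrophil markers 0 to 2, of 6 endothelial markers 0 to 2, of 6 fibroblast markers 1 to 3 and of 6 melanocyte markers 2 to 4. Ly6c and Sca1 are also surface markers of blood and endothelial cells. The part of such cells in the Ly6 regions was not tested.

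The genes whose strongest regions varied over the 10 lists most like those of Ly6a were Cul4b (Pearson r = 0.947), Cibar1 (0.919) and Sufu (0.903), among 18097 genes farther than 1 Mb away. For Ly6d they were 4930444P10Rik and Rpl7 (0.953 each, 1 shared region), and for Ly6e Hoxc11 (0.952) and Ptprd (0.927). The measure was the percentile of the strongest region within 20 kb over the 10 lists, which differ in length and share no other scale. These values are descriptions only.

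At the edge of the windows, the regions just inside lay 18.7 kb from Ly6d, 17.6 kb from Ly6k and 19.7 kb from Ly6e. Those just outside lay 20.2 kb from Ly6k, 21.4 kb from Ly6c1, 21.7 kb from Ly6a, 22.0 kb from Ly6d and 22.3 kb from Ly6e. The one 21.7 kb from Ly6a (chr15:75019401-75019887) was present at 1 week, with vehicle, with UVB and with wound and UVB, and reached a signal value of 10.9.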

How the data were processed

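ATAC-seq was made from 20 libraries in 10 groups of 2. Coordinates are mm10, the build named in the submitters' processing notes. Aligner, peak caller, read depth, filters, any Tn5 shift and whether both libraries of a group came from separate animals are not stated in the sources used here. The authors deposited 1 peak list per group, and the list names speak of a conservative threshold on reproducibility. The deposited score was 540 to 1000. The deposited signal value ranked regions within a list. It was not rescaled between lists, so its order across lists is a description only. The authors' −log10 p was 2.0 or higher and served as another ranking.

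Gene spans came from RefSeq for GRCm38.p6, the assembly of mm10; the table has no strand or exons, so exons, introns and UTRs were not separated. Overlapping peaks of a list were merged, and each region took its signal value and summit from the peak with the highest signal value. Its −log10 p and its score were each the highest among its peaks. A region was a Ly6 region if the summit of any of its peaks lay in a window. Lists held 34644 to 73340 regions. Alternatives were windows of 10 and 50 kb, an overlap of 50% of both regions, summits within 250 bp, lists of equal length, a score of at least 830 (a reproducibility rate of 0.01 by the usual formula), −log10 p and peaks as listed. Wilson 95% intervals cover counting error only. Members, gene lists and motifs were chosen with earlier results of these data known. Named genes were the members, the nearer genes, examples of other family members, and those most like Ly6a (3), Ly6d (2) and Ly6e (2). A planned comparison of proteins was not made. Python 3.11.15, numpy 2.4.6, pandas 2.3.3, scipy 1.17.1, biopython 1.88 and matplotlib 3.10.9 were used, and the code was tested on simulated data.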

Additional observations from a re-analysis of the deposited data

How the results depend on the processing

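No paired analysis was possible because each list pools both libraries of its group, and for the same reason no library could be left out. Of 137 recomputed main values, 111 stayed within their interval or within 1.5 times the main count, and 26 moved. The number of Ly6 regions was 33, and became 55 with windows of 50 kb and 14 with lists of equal length. With peaks as listed there were 237, but these were summed over the 10 lists and not merged. A site can thus be counted in every list, and 237 does not compare with 33. That value is among the 26 that moved. The share present in all 10 lists fell from 24.2 to 7.14% at equal length (all regions 19.8%), which left the region 1.1 kb from Ly6c1. The median percentile of the strongest region over the genes was 46.6 by signal value, 66.3 by −log10 p, 66.7 with peaks as listed and 30.5 at equal length. A region over a Ly6c1 promoter was found in 1 list at equal length, against 5, an alternative added after seeing the data. At equal length the gained shares of 1 week against homeostasis, the second wound against 8 weeks and against homeostasis, and vehicle against homeostasis became 0% (all regions 21.9 to 27.0%), and that of the second wound against the first 27.3% (18.0%). The lost shares became 46.2% for 1 week against homeostasis (all regions 22.8%), 61.5% for vehicle against homeostasis (26%), 20% for cultured control against vehicle (40.8%), and 0% for 8 weeks against 1 week (23.2%) and for the second wound against the first (18.9%). Limiting a long list to its strongest regions removes its weaker Ly6 regions: wound with UVB kept 1 and UVB 2. With the stricter score the lost shares of 1 week, the second wound and vehicle against homeostasis became 0% (all regions 3.90, 11.2 and 0.453%), as did the gained shares of PRT4165 against vehicle (10.7%) and of cultured distal against control (4.89%), and cultured control against vehicle gained 20% (31.0%). With windows of 10 kb the gained share of cultured distal against control and the lost share of vehicle against homeostasis became 0% (all regions 7.60 and 1.15%). With 8 to 23 Ly6 regions in a list, 1 region moves a share by several percentage points, and read depth per library is unknown.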
